A study of Homo sapiens with 12 samples.

Results

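The 10 integrin receptor subunits described here are ITGA2, ITGA3, ITGA4, ITGA5, ITGA6, ITGAV, ITGB1, ITGB3, ITGB5 and ITGB8, chosen by gene symbol from the 36502 genes of the count table. Each symbol matched 1 row, and all 10 were among the 17262 genes that passed the filter on low counts.

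Integrins are cell surface receptors made of 1 alpha and 1 beta chain, which hold cells to the extracellular matrix and pass signals in both directions across the membrane. The alpha chain largely sets which ligand is bound, and most alpha chains of this set pair with the beta chain encoded by ITGB1. ITGAV is the exception with many beta partners, among them the products of ITGB1, ITGB3, ITGB5 and ITGB8. Fibroblast-like tumour cells use these receptors to grip collagen, laminin, fibronectin and vitronectin and to activate latent TGF-beta.

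RNA was sequenced from 12 libraries of HT1080, a human fibrosarcoma cell line, with 2 libraries in each of 6 groups. One clone (the VP16 clone) carried m6A-Tracer-VP16, the tracer fused to the VP16 activation domain, and the other (the GFP clone) carried the GFP-tagged m6A-Tracer alone. The tracer binds adenine-methylated DNA, and both clones could express DamLaminB1, a DNA adenine methyltransferase fused to lamin B1. Libraries named tracer_Dam came from cells given doxycycline at 50 ng/ml for 3 days and then kept for 24 h without it and with 500 nM Shield1, the ligand that stabilises DamLaminB1. Libraries named tracer had the same schedule without Shield1, and uninduced libraries had doxycycline for all 4 days. The groups are VP16_tracer_Dam, VP16_tracer, VP16_uninduced, GFP_tracer_Dam, GFP_tracer and GFP_uninduced. Each tracer was carried by 1 clone, so clone and construct cannot be told apart. The submitters call the 2 libraries of a group biological replicates, without saying what separated them.

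By their titles, the libraries fall into index sets 1 and 2, each with 1 library of every group and the same 6 index sequences. Totals lay between 18774905 and 24827396 counts. The GFP_tracer_Dam and GFP_tracer libraries of index set 1 stood apart, at -87.0 and -78.2 on the first principal component, against -16.2 to 41.0 for the other 10 libraries. A list of 12 integrated stress genes summed to 2501 to 2512 CPM (counts scaled to a common library size by TMM) in those libraries, against 597.1 to 973.0 CPM in the other 10. All 12 mesenchymal markers were detected in each library, with VIM at 1745 CPM or more, and CDH1, the epithelial cadherin, had at most 16 counts. The 10 epithelial markers summed to 12.0 and 16.3 CPM in the libraries that stood apart, against 3.59 to 6.65 CPM in the other 10, mostly ESRP1 (at most 262 counts) and CLDN4 (at most 115).

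To set the subunits side by side, CPM were divided by exon length in kb, which makes genes of different length comparable. ITGB1 (chromosome 10, 33189247 to 33294720, all positions on GRCh37) had the highest mean, 272.9 ± 24.5 CPM per kb (SD over all 12 libraries), followed by ITGA3 (chromosome 17, 48133332 to 48167845), a laminin receptor chain, at 215.0 ± 44.7. ITGB1 was above ITGA3 in 10 of the 12 libraries. ITGA6, another laminin receptor chain (chromosome 2, 173292082 to 173371181), stood at 97.4 ± 7.98 CPM per kb and ITGA2, which makes a collagen receptor with ITGB1 (chromosome 5, 52285156 to 52390609), at 94.8 ± 16.2. These neighbours did not differ beyond their spread, with ITGA6 the higher in 7 of 12 libraries. ITGB5, a vitronectin receptor chain (chromosome 3, 124480795 to 124606674), had 79.8 ± 14.7 CPM per kb. ITGA5, the main fibronectin receptor alpha chain (chromosome 12, 54789045 to 54813244), had 60.0 ± 13.1, within the summed SDs of ITGB5.

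Below a clear step came ITGAV (chromosome 2, 187454790 to 187545628) at 22.7 ± 3.24 CPM per kb, lower than ITGA5 in 12 of 12 libraries. ITGA4, whose product binds VCAM1 and fibronectin (chromosome 2, 182321619 to 182400914), followed at 5.86 ± 1.52. ITGB3 (chromosome 17, 45331208 to 45421658), a beta chain of the vitronectin receptor and of the platelet fibrinogen receptor, lay at 5.62 ± 1.17, and the order of ITGA4 and ITGB3 was split 6 to 6 over the libraries. ITGB8, whose product pairs with that of ITGAV and binds latent TGF-beta (chromosome 7, 20370325 to 20450419), was the lowest at 0.21 ± 0.12 CPM per kb, with 16 to 144 counts per library. ITGB8 also varied most, with a highest library 7.58 times the lowest, while ITGB1 and ITGA6 spanned 1.34 and 1.33 times and the other 7 between 1.71 times (ITGAV) and 2.08 times (ITGA4).

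**Figure D1:**
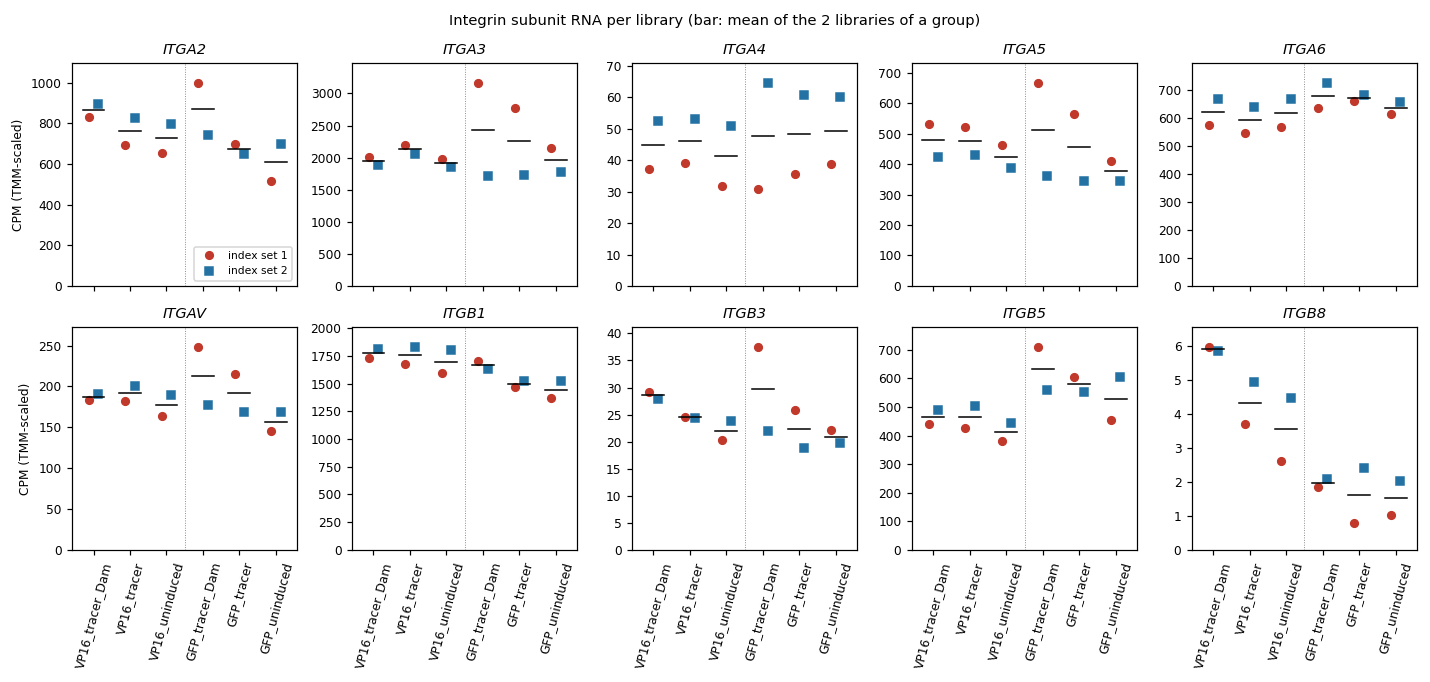
TMM-scaled CPM (linear axis from 0) of each subunit in each of the 12 libraries, with the 3 VP16 groups left of the dotted line and the 3 GFP groups right of it; circles are index set 1, squares index set 2, and bars the mean of the 2 libraries. ITGB8 lies between 2.61 and 5.95 CPM in the VP16 clone and between 0.79 and 2.41 CPM in the GFP clone, and ITGA4 is lower in index set 1 in every group.

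The clones were compared as a mean over all 3 conditions, so induced libraries are part of the difference. The uninduced libraries alone, the background on which the tracers were induced, are given further below. ITGB8 was higher in the VP16 clone, and it was the only member that passed without regard to the index sets. In the VP16 clone ITGB8 had 5.95 and 5.85 CPM in VP16_tracer_Dam, 3.68 and 4.94 CPM in VP16_tracer and 2.61 and 4.47 CPM in VP16_uninduced, index set 1 first in each pair. In the GFP clone it had 1.83 and 2.07 CPM in GFP_tracer_Dam, 0.79 and 2.41 CPM in GFP_tracer and 1.02 and 2.03 CPM in GFP_uninduced. The lowest VP16 library was above the highest GFP library, so the clones did not overlap. The share of all genes without such overlap was not counted. The difference was 1.41 ± 0.30 on the log2 scale (SE, edgeR adjusted p = 0.026), or 2.65-fold, and 1.68 within index set 1 and 1.19 within index set 2. Over all genes tested 7.64% were called (2.62% higher and 5.01% lower), so 1 of 10 members is close to the background.

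Blocking on index set gave an ITGB8 difference of 1.44 ± 0.20 (SE, edgeR adjusted p = 0.0027), called without any 1 of the 12 libraries too (edgeR adjusted p from 0.0025 to 0.015). Without the block the call ended when any of 7 libraries was left out (both VP16_tracer, both VP16_tracer_Dam, VP16_uninduced of index set 2, and GFP_uninduced and GFP_tracer_Dam of index set 1), with edgeR adjusted p from 0.056 to 0.087. In the uninduced libraries alone ITGB8 differed by 1.21 ± 0.52 (SE, edgeR adjusted p = 0.65, and 0.15 under the block). There 0 of 10 members passed, beside 0.278% of all genes (0.0753% higher and 0.203% lower) and, under the block, 1.89% (0.475% higher and 1.42% lower). Without the set 1 libraries of GFP_tracer_Dam and GFP_tracer, 6 of 10 members passed in the uninduced libraries under the block (ITGA2, ITGA4, ITGA5, ITGB1, ITGB5 and ITGB8), beside 21% of all genes, with ITGB8 at 1.19.

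The ITGB8 promoter is shown because this gene had the largest difference between the clones. It is the RefSeq window on GRCh38.p14, chr7:20330650-20330949, plus strand, from 250 bases before to 50 after the gene's start. Capitals mark matches to GGGCGG, the GC box bound by SP1, on either strand.
ITGB8: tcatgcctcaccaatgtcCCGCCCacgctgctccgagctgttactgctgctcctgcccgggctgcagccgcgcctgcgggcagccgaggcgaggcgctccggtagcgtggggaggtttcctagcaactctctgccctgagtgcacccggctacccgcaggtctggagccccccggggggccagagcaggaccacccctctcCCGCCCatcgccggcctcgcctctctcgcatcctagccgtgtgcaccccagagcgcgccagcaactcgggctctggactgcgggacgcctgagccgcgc
The window holds 2 such matches and is 71.7% G and C. Of 35116 RefSeq promoter windows of 300 bases, 45.0% hold at least 1. TGANTCA (the AP-1 site), TGACGTCA (the CRE), CACGTG (an E-box) and TATAAA, searched on both strands, were not found in it.

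The other beta chains differed less between the clones. ITGB1 had 1597, 1767 and 1830 CPM (lowest, median, highest of 6 libraries) in the VP16 clone and 1367, 1527 and 1703 CPM in the GFP clone. It was higher in the VP16 library in all 6 pairs of the same condition and index set, although the clones' ranges overlapped. ITGB5 had 380.7, 442.5 and 504.2 CPM in the VP16 clone and 453.8, 582.3 and 709.3 CPM in the GFP clone, and was lower in the VP16 library in all 6 pairs. The share of all genes with 6 like signs was not counted. ITGB1 differed by 0.18 ± 0.06 (SE, edgeR adjusted p = 0.13) and ITGB5 by -0.38 ± 0.11 (SE, edgeR adjusted p = 0.068). Under the block both passed (edgeR adjusted p = 0.026 for ITGB1 and 0.028 for ITGB5), so that 3 of 10 members were called, beside 20.9% of all genes (9.03% higher and 11.9% lower). With 1 library left out, the blocked call of ITGB1 held in 2 of 12 cases (without either GFP_tracer_Dam library) and that of ITGB5 in 4 of 12 (without either GFP_tracer_Dam library, GFP_uninduced of index set 1 or GFP_tracer of index set 2). ITGB3, at 25.0 ± 3.18 CPM in the VP16 clone and 24.3 ± 6.89 in the GFP clone (SD, n = 6 each, over 3 conditions), did not pass either way.

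None of the 6 alpha chains passed between the clones, with or without the block. Their log2 differences ran from -0.15 ± 0.17 for ITGA3 to 0.14 ± 0.11 for ITGA2 (SE). The largest one relative to its error was ITGA6 under the block, -0.12 ± 0.04 (SE, edgeR adjusted p = 0.097), lower in the VP16 library in 5 of 6 pairs. The differences of ITGA3, ITGA4, ITGA5 and ITGAV had opposite signs in the 2 index sets. They were -0.37, 0.04, -0.09 and -0.17 in index set 1 and 0.15, -0.24, 0.24 and 0.18 in index set 2. The beta chain ITGB3 changed sign as well, with -0.18 in index set 1 and 0.33 in index set 2. When the GFP_tracer_Dam and GFP_tracer libraries of index set 1 were left out and the block kept, 9 of 10 members passed, beside 33.3% of all genes (15.9% higher and 17.5% lower). ITGA2 (0.31), ITGA5 (0.24), ITGAV (0.18), ITGB1 (0.21), ITGB3 (0.26) and ITGB8 (1.31) were then higher in the VP16 clone and ITGA4 (-0.24), ITGA6 (-0.11) and ITGB5 (-0.22) lower. ITGA3 was the member not called (0.09 ± 0.04 SE, edgeR adjusted p = 0.080). The stress genes given above move with those libraries, and the mesenchymal markers summed to 9257 to 10587 CPM in the VP16 clone against 6627 to 8835 CPM in the GFP clone (this list also holds FN1, FBN1 and COL6A1). Their part in the differences was not tested.

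**Figure D2:**
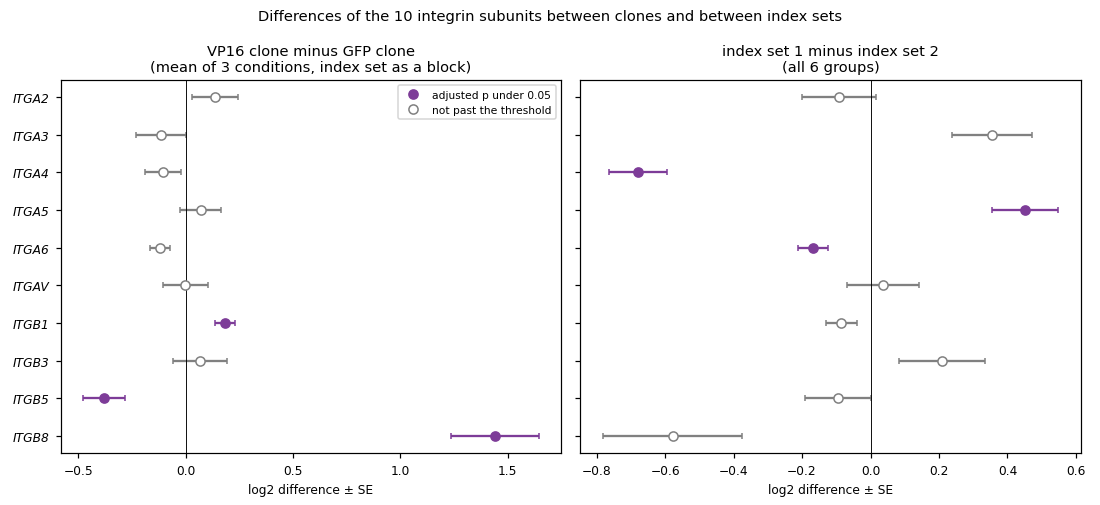
Log2 differences with their SE for the 10 subunits, VP16 clone minus GFP clone over 3 conditions (left) and index set 1 minus index set 2 over 6 groups (right), both from the model that includes the index set; filled points have an adjusted p under 0.05. ITGB8 is the farthest point between the clones at 1.44, while ITGA4 at -0.68 and ITGA5 at 0.45 lie on opposite sides between the index sets.

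The index sets were compared because libraries of one set deviated together. ITGA4 and ITGA5, alpha chains of fibronectin receptors, differed in opposite directions. ITGA4 had 31.0, 36.4 and 39.0 CPM (lowest, median, highest of 6 libraries) in index set 1 and 50.8, 56.7 and 64.5 CPM in index set 2. It was lower in index set 1 in 6 of 6 groups, and the sets did not overlap, a share not counted over all genes. ITGA5 had 411.0, 527.7 and 665.6 CPM in index set 1 and 345.7, 372.7 and 430.6 CPM in index set 2, and was higher in index set 1 in 6 of 6 groups, with a narrow overlap of the ranges. Between the index sets, too, the share of all genes with 6 like signs was not counted. The log2 difference was -0.68 ± 0.08 for ITGA4 (SE, edgeR adjusted p = 0.0014) and 0.45 ± 0.10 for ITGA5 (SE, edgeR adjusted p = 0.012). Per kb, ITGA4 amounted to 4.47% to 9.04% of ITGA5 in the libraries of index set 1 and to 11.8% to 17.2% in those of index set 2.

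Leaving out any 1 library kept both calls, and in the libraries other than GFP_tracer_Dam and GFP_tracer the differences were -0.56 for ITGA4 and 0.28 for ITGA5. Within the VP16 clone they were -0.54 and 0.29, and within the GFP clone -0.82 and 0.61. ITGA6, with 546.1, 595.4 and 659.3 CPM in index set 1 and 640.6, 668.3 and 723.8 CPM in index set 2, was lower in index set 1 in 6 of 6 groups, by -0.17 ± 0.04 (SE, edgeR adjusted p = 0.027). The ITGA6 call ended when any 1 of the 6 VP16 libraries was left out (edgeR adjusted p from 0.057 to 0.080) and held without any 1 of the 6 GFP libraries. These 3 called members of 10, 1 higher and 2 lower, stand beside 28.2% of all genes (15.6% higher and 12.6% lower), a share near the background. The endothelial markers, nearly all of it TIE1, summed to 94.0 to 135.1 CPM in index set 1 and 56.1 to 71.9 CPM in index set 2, and their part was not tested.

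ITGA3 had 1981 to 3158 CPM in index set 1 and 1718 to 2059 CPM in index set 2, higher in index set 1 in 6 of 6 groups; it differed by 0.35 ± 0.12 on the log2 scale (SE, edgeR adjusted p = 0.055). ITGB8 differed by -0.58 ± 0.20 (SE, edgeR adjusted p = 0.067). ITGA2, ITGAV, ITGB1, ITGB3 and ITGB5 differed by -0.09, 0.04, -0.09, 0.21 and -0.09, none of them called. The value of ITGAV changed with the libraries used, and the cause was not tested. Of the 4 GFP_tracer_Dam and GFP_tracer libraries, only those of index set 1 stood apart. Without these 4 libraries ITGAV was at -0.15 (edgeR adjusted p = 0.0061), lower in index set 1. In those 8 libraries 9 of 10 members passed, ITGB3 (0.01) being the exception, beside 40.9% of all genes (20.7% higher and 20.2% lower).

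**Figure D3:**
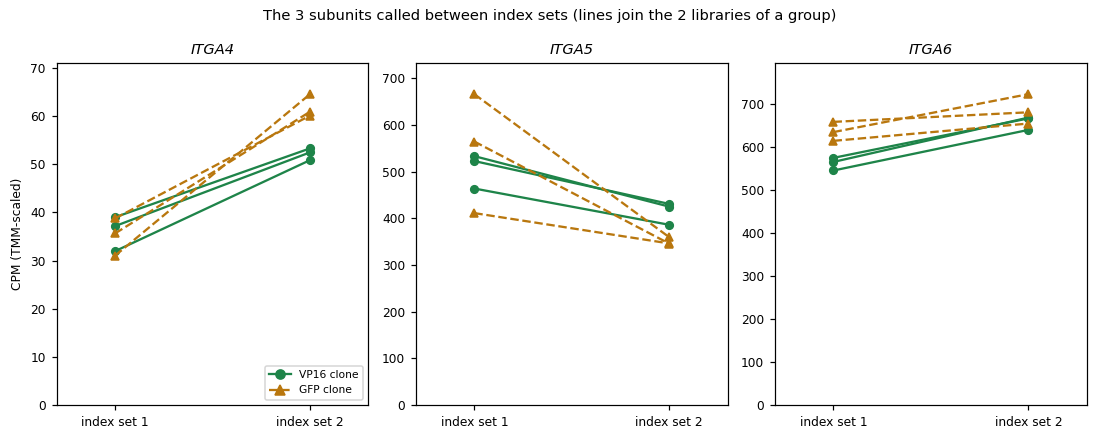
TMM-scaled CPM (linear axis from 0) of ITGA4, ITGA5 and ITGA6 in the 6 groups, each line joining the index set 1 library of a group to its index set 2 library; solid lines are the VP16 clone and dashed lines the GFP clone. All 6 lines of ITGA4 and of ITGA6 go up towards index set 2, and all 6 lines of ITGA5 go down.

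The promoters of ITGA4 and ITGA5 are shown because these chains moved in opposite directions between the sets. Both are RefSeq windows on GRCh38.p14 from 250 bases before to 50 after the start, ITGA4 at chr2:181457136-181457435 on the plus strand and ITGA5 at chr12:54419217-54419516 on the minus strand. Capitals mark matches to the same 5 motifs as for ITGB8.
ITGA4: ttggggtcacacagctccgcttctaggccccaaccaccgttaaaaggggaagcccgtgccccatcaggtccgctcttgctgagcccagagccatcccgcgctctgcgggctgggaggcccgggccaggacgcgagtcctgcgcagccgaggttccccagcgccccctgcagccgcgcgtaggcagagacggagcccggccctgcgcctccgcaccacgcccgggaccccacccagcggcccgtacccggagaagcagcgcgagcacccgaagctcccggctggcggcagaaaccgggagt
ITGA5: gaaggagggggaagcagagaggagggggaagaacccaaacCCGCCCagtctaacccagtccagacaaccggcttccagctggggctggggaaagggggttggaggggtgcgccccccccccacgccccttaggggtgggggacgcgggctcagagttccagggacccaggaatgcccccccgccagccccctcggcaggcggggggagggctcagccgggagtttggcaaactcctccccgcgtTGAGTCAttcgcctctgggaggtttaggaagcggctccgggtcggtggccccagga
The ITGA4 window holds none of the 5 motifs. The ITGA5 window holds 1 GC box and 1 AP-1 match, TGAGTCA, that begins at position -6 relative to the start. An AP-1 match occurs in 7.71% of the 35116 windows. A match is a description of the letters, not a binding site.

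Doxycycline withdrawal, which induces the tracer, was examined in each clone. Withdrawal and tracer expression change together and cannot be told apart. None of the 10 members passed in either clone, with or without the block. Without it 0 of 10 had an unadjusted p under 0.05. Under the block ITGA5, ITGA3 and ITGB5 in the VP16 clone were at 0.16 ± 0.17, 0.15 ± 0.20 and 0.17 ± 0.17 (SE). Without the block their SEs were 0.32, 0.29 and 0.18, so a missing call does not show that nothing changed. These SEs pool the spread of all 6 groups, with the GFP libraries that stood apart among them. Under the block without those libraries the values were 0.17, 0.16 and 0.18, with smaller SEs and still no call. In the fit of all 12 libraries without the block, the VP16 clone values of the members ran from -0.06 (ITGA6) to 0.28 ± 0.50 (ITGB8, log2, SE). Of these, 9 of 10 were above 0, beside 48.9% of all genes, and the median was 0.15, where all genes had a median of -0.00. In the GFP clone the members ran from -0.03 (ITGA4) to 0.29 ± 0.19 (ITGAV, SE). Here 9 of 10 were above 0, beside 50.9% of all genes, and the median was 0.11, where all genes had a median of 0.01. The members share the same libraries, so these counts and medians are descriptions in both clones, not support for a common rise. In index set 2 of the GFP clone, however, ITGA2, ITGA3, ITGA5, ITGB1, ITGB3 and ITGB5 were below 0. By edgeR 0% of all genes were called in both, with 72 and 125 of 17262 at an unadjusted p under 0.05, and DESeq2 called 0 in each.

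In the GFP clone the index sets gave different values for several members. The values of index set 1 rest on its GFP_tracer library, one of those that stand apart, where the stress genes summed to 2512 CPM against 597.1 CPM in GFP_uninduced; their part was not tested. ITGAV stood at 215.2 CPM in GFP_tracer against 145.4 CPM in GFP_uninduced in index set 1, and at 169.0 against 168.3 CPM in index set 2. ITGA5 stood at 564.2 against 411.0 CPM in index set 1 and at 345.7 against 346.1 CPM in index set 2. ITGA3 had 2777 against 2151 CPM in index set 1 and 1726 against 1769 CPM in index set 2. The log2 changes of ITGAV, ITGA5, ITGA2, ITGB5 and ITGA3 were 0.57, 0.46, 0.43, 0.41 and 0.37 in index set 1, and 0.01, -0.00, -0.11, -0.13 and -0.04 in index set 2. ITGB8 ran the other way, at -0.34 in index set 1 and 0.24 in index set 2. In the VP16 clone the sets were closer, with ITGA5 at 0.17 and 0.16, ITGA3 at 0.15 and 0.15, ITGB5 at 0.16 and 0.18 and ITGAV at 0.15 and 0.08 in index sets 1 and 2. The difference in response between the clones was called for 0 of 10 members, with log2 values from -0.18 ± 0.27 (ITGAV) to 0.21 ± 0.73 (ITGB8, SE), 0% of all genes called by edgeR, 94 at an unadjusted p under 0.05 and 0 called by DESeq2.

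**Figure D4:**
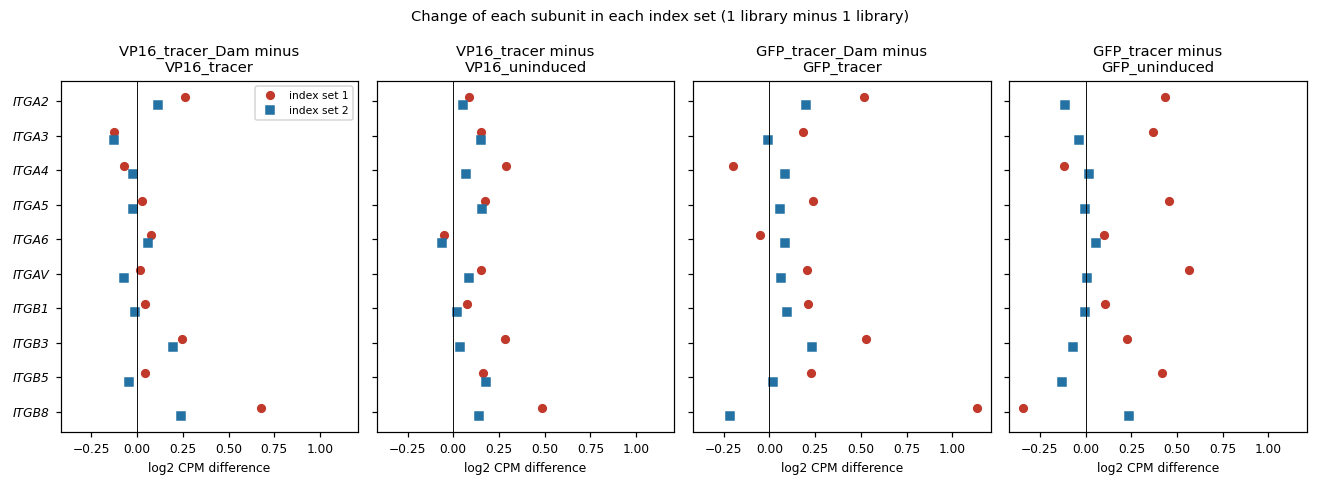
Log2 CPM difference of each subunit for Shield1 addition (tracer_Dam minus tracer) and doxycycline withdrawal (tracer minus uninduced) in the VP16 and GFP clones; each point is 1 library minus 1 library of the same index set (circles set 1, squares set 2). In GFP_tracer minus GFP_uninduced the index set 1 points of ITGA2, ITGA3, ITGA5, ITGAV and ITGB5 lie between 0.37 and 0.57, while those of index set 2 lie between -0.13 and 0.01.

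Shield1 was added to stabilise DamLaminB1 in cells that already expressed the tracer. Again 0 of 10 members passed in either clone, with or without the block, and without it none had an unadjusted p under 0.05. ITGB8 had the largest value in the VP16 clone, 0.45 ± 0.49 (SE), with 5.95 against 3.68 CPM in index set 1 and 5.85 against 4.94 CPM in index set 2 (VP16_tracer_Dam against VP16_tracer). ITGB3 had the largest value in the GFP clone, 0.41 ± 0.25 (SE), with 37.4 against 25.9 CPM in index set 1 and 22.1 against 18.8 CPM in index set 2 (GFP_tracer_Dam against GFP_tracer). ITGB3 was higher with Shield1 in the VP16 clone as well, at 29.2 against 24.6 CPM and 27.9 against 24.4 CPM, and so was ITGA2, at 832.7 against 694.1 CPM and 894.2 against 827.0 CPM. In the GFP clone ITGA2 had 996.8 against 697.4 CPM and 741.7 against 646.8 CPM. All 4 pairs of both genes thus had the same sign, which held for none of the other members. Both were picked from the 10 members by these values. The share of all genes with 4 like signs was not counted, so no common response is drawn from this. The fitted values were 0.22 ± 0.25 for ITGB3 and 0.18 ± 0.20 for ITGA2 in the VP16 clone, and 0.37 ± 0.20 for ITGA2 in the GFP clone (SE). Under the block without the set 1 libraries of GFP_tracer_Dam and GFP_tracer they were 0.22 ± 0.09, 0.19 ± 0.07 and 0.20 ± 0.09, with 0.24 ± 0.14 for ITGB3 in the GFP clone (SE), none of them called. The median over the members was 0.01 in the VP16 clone and 0.15 in the GFP clone, and the clone difference was called for 0 of 10. By edgeR 0% of all genes were called in the 3 comparisons with Shield1, with 53, 80 and 50 of 17262 at an unadjusted p under 0.05, and DESeq2 called 0 in each.

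Of the other 16 integrin subunits, 14 could be tested (ITGA8 and ITGA9 had at most 1 and 10 counts). Between the clones ITGA1, a collagen-binding partner of ITGB1, was higher, with 64.3, 105.7 and 128.2 CPM (lowest, median, highest of 6) in the VP16 clone and 30.4, 46.0 and 70.2 CPM in the GFP clone. The ranges overlapped slightly, and the log2 difference was 1.11 ± 0.18 (SE, edgeR adjusted p = 0.0092). It was the 1 subunit of 14 called, close to the 7.64% of all genes, and it held without any 1 library. In the VP16 clone ITGAD and ITGAL had at most 0.47 and 0.52 CPM. They passed the filter on low counts only through GFP libraries, which fixed their direction. The next calls are therefore descriptions, not support for a difference between the clones. Under the block ITGAD and ITGAL, with at most 35 and 44 counts, were also called as lower (edgeR adjusted p = 0.0054 and 0.049), beside 11.9% of all genes. Without the set 1 libraries of GFP_tracer_Dam and GFP_tracer neither was (edgeR adjusted p = 0.099 and 0.53). The collagen receptor chains ITGA10 and ITGA11 differed by -0.09 ± 0.25 and -0.09 ± 0.28 (SE), neither called.

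Between the index sets 8 of the 14 were called, 7 higher in index set 1, beside 28.2% of all genes (15.6% higher and 12.6% lower), with a median over the 14 of 0.64 beside 0.01 over all genes. These 7 were the leukocyte beta chain ITGB2, its 4 alpha partners ITGAL, ITGAM, ITGAX and ITGAD, the platelet chain ITGA2B and ITGB7. In index set 2 ITGB2, ITGAL, ITGAD and ITGA2B had at most 0.09, 0.22, 0.24 and 0.34 CPM. They passed the filter on low counts only through index set 1, which fixed their direction. The count of 7 and the median over the 14 are therefore descriptions, not support for a shift of these genes. The ITGB7 call (0.82 ± 0.24 SE, edgeR adjusted p = 0.038) held in 3 of 12 cases with 1 library left out, without GFP_tracer or VP16_uninduced of index set 1 or VP16_uninduced of index set 2. ITGB2 had 0.83 to 2.21 CPM in index set 1 and 0 to 0.09 CPM in index set 2, where no library held more than 2 counts. ITGAX had 7.17 to 25.3 CPM in index set 1 and 2.19 to 3.85 CPM in index set 2 (log2 difference 2.30 ± 0.15 SE, edgeR adjusted p = 0.00013). ITGAM had 1.36 to 3.09 against 0.40 to 0.60 CPM. PTPRC, which marks all leukocytes, had at most 2 counts in any library. The 9 blood and platelet markers present summed to 184.8 to 339.4 CPM in index set 1 and 117.7 to 187.7 CPM in index set 2, nearly all of it CD68; this list also holds ITGAL and ITGA2B. The 1 subunit lower in index set 1 was ITGA10, at 47.6 to 66.9 against 73.1 to 103.4 CPM (-0.69 ± 0.09 SE, edgeR adjusted p = 0.0013).

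**Figure D5:**
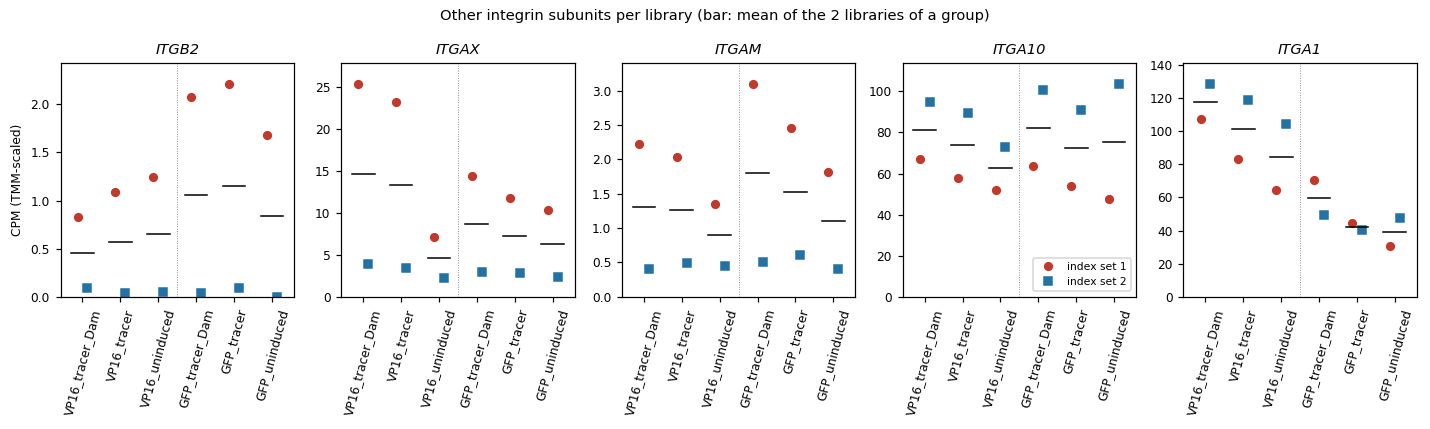
TMM-scaled CPM (linear axis from 0, a scale of its own per gene) of ITGB2, ITGAX, ITGAM, ITGA10 and ITGA1 per library, VP16 groups left of the dotted line and GFP groups right of it; circles are index set 1, squares index set 2, bars the mean of 2 libraries. ITGB2, ITGAX and ITGAM are higher in index set 1 in each group, ITGA10 is lower, and ITGA1 is higher in the VP16 clone.

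Ligands and partners of integrins gave further calls. Of 26 ligand genes tested, 4 were higher in the VP16 clone and 0 lower, beside 2.62% and 5.01% of all genes. Among them were FBN1 (fibrillin 1, 0.72 ± 0.07), COL6A1 (a collagen VI chain, 0.75 ± 0.16) and LAMA4 (a laminin chain, 0.57 ± 0.14, log2 ± SE). Their edgeR adjusted p ran from 0.00075 to 0.043, and the median over the list was 0.02. FBN1 held without any 1 library. COL6A1 was lost without GFP_uninduced, GFP_tracer or VP16_tracer_Dam of index set 1 or any VP16 library of index set 2. LAMA4 held in 2 of 12 cases (without GFP_tracer or GFP_tracer_Dam of index set 2). Under the block 6 ligands were higher and 1, MFGE8, lower (-0.49, edgeR adjusted p = 0.0029), beside 9.03% and 11.9% of all genes. Blocked, COL6A1 and LAMA4 held without any 1 library. Between index sets 6 ligands were higher and 3 lower in index set 1, which is near the background of 15.6% and 12.6% of all genes. FN1, which encodes fibronectin, the ligand of the receptors with ITGA4 and ITGA5, had 520.1 to 1638 CPM in index set 1 and 1581 to 2619 CPM in index set 2, lower by a log2 value of -0.97 ± 0.19 (SE, edgeR adjusted p = 0.0078). Without the GFP_tracer_Dam and GFP_tracer libraries it was -1.12 (edgeR adjusted p = 0.069). NID1 (nidogen 1) was also lower (-0.68), and MFGE8 and TGFB2 were higher (0.61 and 0.49).

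Of 25 activators and adaptors tested, 0 were higher and 4 lower in the VP16 clone, beside 2.62% and 5.01% of all genes. The 4 were PARVA (alpha-parvin, which links the ILK complex to actin, -0.75 ± 0.08), TNS3 (tensin 3, -0.54 ± 0.10), CSK (a kinase that restrains SRC, -0.30 ± 0.07) and NEDD9 (a docking protein of the BCAR1 family, -3.02 ± 0.76, log2 ± SE). Their edgeR adjusted p ran from 0.0019 to 0.048. PARVA had 24.7 to 27.9 CPM in the VP16 clone and 39.2 to 48.3 CPM in the GFP clone, and held without any 1 library. NEDD9 had 0.27 to 3.10 CPM in the VP16 clone and 3.39 to 37.1 CPM (median 5.26) in the GFP clone, with at most 4.93 CPM in index set 2. Under the block without the set 1 libraries of GFP_tracer_Dam and GFP_tracer, its difference was -2.19. TNS3 was lost without VP16_tracer or VP16_tracer_Dam of index set 1 or without GFP_uninduced or any VP16 library of index set 2. CSK held in 2 of 12 cases (without either GFP_tracer_Dam library), and so did NEDD9 (without GFP_tracer or GFP_tracer_Dam of index set 2). Under the block 1 was higher and 5 were lower, beside 9.03% and 11.9% of all genes. Blocked, PARVA, TNS3 and NEDD9 held without any 1 library, and CSK was lost without VP16_uninduced of index set 2 (edgeR adjusted p = 0.050).

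Of 13 membrane partners 3 were lower in the VP16 clone and 0 higher, beside 5.01% and 2.62% of all genes. They were the tetraspanins CD151 (-0.49 ± 0.07) and TSPAN4 (-0.48 ± 0.11) and the integrin-associated protein CD47 (-0.44 ± 0.08, SE). CD151 held without any 1 library, CD47 was lost without VP16_uninduced of index set 2 (edgeR adjusted p = 0.052), and TSPAN4 held in 3 of 12 cases (without either GFP_tracer_Dam library or GFP_tracer of index set 2). Under the block 1 partner was higher and 5 were lower, beside 9.03% and 11.9% of all genes, and these 3 held without any 1 library. The partners CD63, BSG, CD82 and SDC4 were among 5 higher in index set 1 (0.50, 0.43, 0.61 and 0.45), beside 15.6% of all genes. None of the 6 inhibitors tested passed in either comparison, with 1, DAB2, lower in the VP16 clone under the block (edgeR adjusted p = 0.018). In the 4 induction comparisons and the 2 differences between clones, 0 members of these 5 lists were called.

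ITGB8 had the largest SD of log2 CPM over the 12 libraries among the members (0.91). Of 13749 other genes with a mean of at least 1 CPM, those with the most similar pattern were RARG (a retinoic acid receptor, Pearson r = 0.97), TNFRSF25 (0.96), ZMIZ1 (0.96), RDH10 (a retinol dehydrogenase, 0.96) and C12orf53 (0.96). The libraries share clone and index set, so these values describe the pattern only.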

How the data were processed

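The authors deposited read counts per Ensembl gene, not normalized, for 12 libraries; 59 of 36502 rows carry no annotation. Per the submitters' processing notes, the tools were TopHat 1.4.0, Bowtie 0.12.7 and HTSeq, with GRCh37 as the genome build. How HTSeq treated strand and overlaps is not given in the sources used here, so reads of overlapping genes (such as ITGB5-AS1 in ITGB5) cannot be told apart; no gene overlapping a member had more than 415 counts (at ITGB1).

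Genes were kept by filterByExpr, scaled by TMM and tested by quasi-likelihood in edgeR 4.0.16 (R 4.3.3), each group having its own coefficient in a fit of all 12 libraries (6 residual degrees of freedom), with Benjamini-Hochberg adjustment over 17262 genes at 0.05. The comparison of index sets added the set as a term. SEs were derived from the log2 change and its F statistic. Values within 1 index set are differences of log2 CPM with a prior count of 2. What separated the replicate libraries is not stated, so p-values measure the spread between these libraries alone.

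Deviations from group means correlated within index sets over all 15 pairs of groups (r from 0.41 to 0.86 across genes), so the sets pair the libraries. The 2 libraries of a group differed by a chi-square per degree of freedom of 19.6 to 126.3. Exon lengths are unions of GENCODE 29 exons (GRCh38), a choice made after the files were seen; promoters are RefSeq's, with a window for 8 of the 10 members. Alternatives were RLE factors, DESeq2 1.42.0, other filters, the block, and leaving out libraries; for the named genes of other lists they were added after seeing the data.

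The members and lists were chosen with earlier results of these data known. All members are named, and for each other list up to 4 genes per comparison by smallest p; ITGA8, ITGA9, ITGA11, PTPRC, TIE1 and CD68 were added after their values were seen. One gene that this rule names is not reported here. In simulated counts for the clone comparison over 16737 genes, the model recovered 15 of 66, 36 of 66 and 49 of 64 genes changed by 1.5-, 2- and 4-fold, with 1 false call. With the block it recovered 35, 51 and 58, with 10 false calls. The simulation drew each library's noise independently and held no libraries that stood apart together, so these counts may not carry over to the real libraries.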

Additional observations from a re-analysis of the deposited data

How the results depend on the processing

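With RLE factors in place of TMM no count of calls moved by over 1.5 times. Between the clones, the 1318 genes called became 2201 with DESeq2, 740 with a mean of at least 10 CPM, 3609 under the replicate block and 5855 under the block without the outlying GFP libraries (GFP_tracer_Dam and GFP_tracer of index set 1). The 1 member called became 2 with DESeq2, 2 with no filter, 0 at 10 CPM (where ITGB8 was not tested), 3 under the block and 9 without the outlying libraries. With 1 library left out, 543 to 2221 genes and 0 to 2 members were called without the block, and 1876 to 5482 genes and 1 to 3 members with it. In the uninduced libraries, the 48 genes became 297 with DESeq2, 220 with no filter, 6 at 10 CPM, 327 under the block and 3685 without the outlying libraries, with 6 members called in that last setting, 1 to 63 with 1 library left out, and 20 to 481 with 1 library left out under the block.

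Without the outlying libraries 1 gene, no member, was called for tracer induction in the VP16 clone, 1 in the GFP clone, 1 for Shield1 in the VP16 clone, 1 in the GFP clone and 1 for its difference between the clones; with 1 library left out, 0 to 1 in both GFP comparisons. Between the index sets the 4869 genes became 2965 at 10 CPM, and the 3 members became 5 with DESeq2 and 9 without the GFP_tracer_Dam and GFP_tracer libraries. ITGAV changed sign, to 0.18 between the clones without the outlying libraries and to -0.15 between the index sets without the 4 GFP_tracer_Dam and GFP_tracer libraries; the cause was not tested. Over all alternatives, 2511 of 2561 member values kept their side of the threshold, 35 gained a call with the same sign, 13 lost one and 2 had the opposite sign and a call. In all, 247 values had the opposite sign, all but those 2 with no call in either setting. For the named genes of the other lists, 1079 values kept it, 117 gained a call and 112 lost one. ITGB8, with 16 to 144 counts per library, has the least precise values.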
